A study of Sus scrofa with 9 samples.

Results

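Activin and TGF-β ligands and receptors were followed through early development of the additional molars of the Wuzhishan miniature pig. The ligands were INHBA, TGFB1 and TGFB2, the type I receptors ACVR1 and ACVR1B, and the type II receptors ACVR2A and ACVR2B. A probe set was taken when the platform annotation gave it a single gene symbol and this symbol was one of these. Symbols were first updated through their Entrez gene number to those of the RefSeq gene table, where it held the number. This gave 13 of the 23999 probe sets tested and 7 of the 6765 genes with a symbol. Additional molars are the permanent molars that replace no milk tooth, and they arise in sequence from front to back. Germs with their dental lamina were dissected from the mandibles of fetuses of this breed, for which no treatment or genetic change is named, at E50, when the first molar (M1) was at the cap stage and the second (M2) had not started, at E60, when M1 was at the bell stage and M2 had been initiated, and at E70, when M1 was at the late bell stage and M2 had advanced little. RNA from pooled germs was hybridised to 3 Affymetrix porcine arrays per stage, 9 in all, which the labels call biological replicates. Germs of a stage were taken within a litter according to the methods, and whether the 3 arrays of a stage came from separate litters is not given in the sources used here, so p-values measure the spread between these arrays and may not cover that between litters.

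Ligands of this superfamily bind a complex of type II and type I serine/threonine kinase receptors, in which the type II receptor phosphorylates the type I receptor and the type I receptor then phosphorylates SMAD proteins. Activins and TGF-βs act mainly through SMAD2 and SMAD3, whereas bone morphogenetic proteins (BMPs) act through SMAD1, SMAD5 and SMAD9. In the mouse, activin A made in dental mesenchyme is needed for the incisors and the lower molars, and in cultured mouse molars activin and BMP4 favour the start of the next molar while an earlier molar holds it back, a relation called the inhibitory cascade. The question put to the data was how these ligands and receptors ran across the stages at which M2 begins behind M1.

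The values are Affymetrix MAS 5.0 signals, scaled so that each array has the same trimmed mean of 500.1, and changes are differences of mean log2 signal. The E50 arrays stood apart from the others in quality. Their ratio of 3′ to 5′ signal for elongation factor 1-alpha was 49.3 to 55.8, against 1.42 to 1.56 at E60 and 1.35 to 1.47 at E70, and arrays of E50 correlated with each other at a mean r of 0.609 to 0.648, against 0.903 to 0.916 within E60 or E70. Background, taken as the 95th percentile of 23 control probe sets without a pig target, was a signal of 77.7 to 379 on E50 arrays, 37.9 to 54.4 on E60 arrays and 38.1 to 55.8 on E70 arrays. Of the 13 member probe sets, 7 were above background on every E50 array, 10 on every E60 array and 11 on every E70 array. Every comparison with E50 is therefore also one between arrays of unlike quality, and stage and array quality cannot be told apart there. The comparison of E70 with E60 does not use the E50 arrays except through the shared estimate of spread. The E60 and E70 arrays also differed in quality, to a smaller degree. E60 arrays had 3′ to 5′ ratios of 30.1 to 34.9 for actin and 6.98 to 9.24 for GAPDH. E70 arrays had lower ones, 22.9 to 26.3 and 4.36 to 6.47. The geometric mean of the hybridisation spike-ins was 4149.5 to 4267.7 on E60 arrays, 3086 to 3938.2 on E70 arrays and 58370 to 66123 on E50 arrays. The part of these differences in changes of E70 against E60 was not tested.

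**Figure D1:**
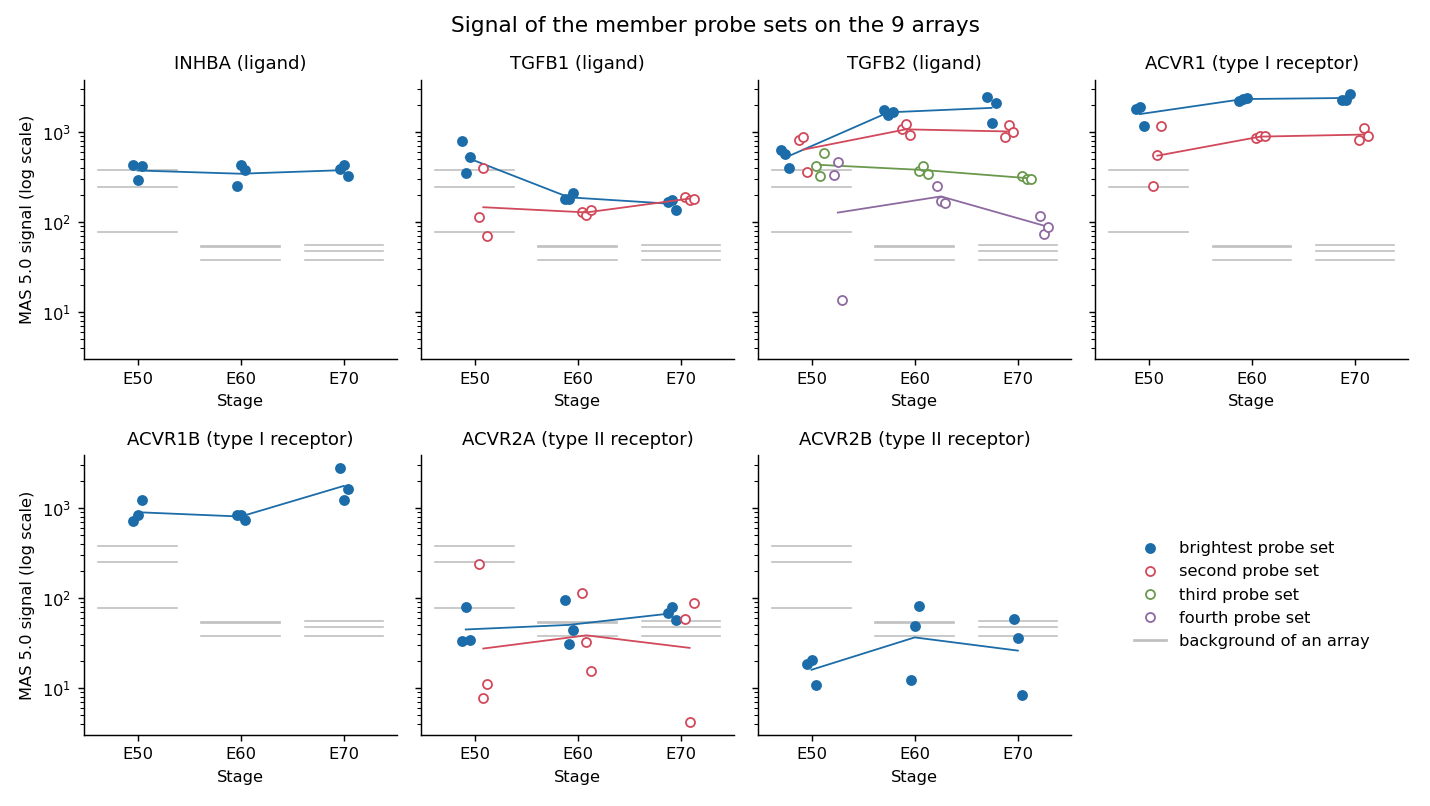
MAS 5.0 signal (log scale) of the 13 member probe sets by stage, one panel per gene. Each point is an array (3 per stage), lines join geometric means, filled points are the brightest probe set of the gene, and grey lines mark the background of each array. The brightest TGFB2 probe set lies at 396 to 632 at E50 and at 1262 to 2429 at E70, and the probe sets of ACVR2A and ACVR2B lie near or under the background lines.

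INHBA encodes the βA subunit, which pairs with itself to form activin A. Its single probe set gave signals of 432, 291 and 419 at E50, of 252, 433 and 377 at E60 and of 385, 433 and 326 at E70, and was above background on all 9 arrays. The ranges of the 3 stages overlapped, and the lowest signal of all was an E60 array. The log2 change was -0.12 for E60 against E50 (95% interval -0.82 to 0.58, limma adjusted p = 0.806) and 0.13 for E70 against E60 (-0.56 to 0.83, adjusted p = 1.0). The sign of the first of these changes turned with the scaling of the arrays, to 0.66 when arrays were centred on their medians and to 0.30 after quantile normalisation. A rise or fall of INHBA was thus not detectable, and the intervals hold changes of up to 0.83 log2 units.

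TGFB1 encodes TGF-β1, which is secreted in a latent complex and acts on many mesenchymal and immune cells. Its brightest probe set gave 792, 349 and 528 at E50, 179, 180 and 209 at E60 and 168, 178 and 136 at E70. Every E60 array and every E70 array lay below every E50 array. E60 was lower than E50 by a log2 change of -1.48 ± 0.33 (SE, 95% interval -2.24 to -0.72, limma adjusted p = 0.0217), a 2.79-fold lower signal, and E70 was lower than E50 by -1.72 ± 0.33 (adjusted p = 0.0121). Every E70 array was also below every E60 array, by a log2 change of -0.24 (-1.002 to 0.52, adjusted p = 1.0). In a bulk extract of this kind, fewer cells of a type and less RNA per cell cannot be told apart. The other TGFB1 probe set did not show the same course. It gave 114, 397 and 69.6 at E50, with 1 of these 3 arrays above background, 131, 120 and 135 at E60, and 192, 177 and 179 at E70, with a log2 change of -0.19 for E60 against E50 (-1.54 to 1.16, adjusted p = 0.842). Every E70 array of this probe set was above every E60 array, by 0.51 (-0.84 to 1.86, adjusted p = 1.0). When both probe sets were averaged, the E60 against E50 change of TGFB1 was -0.84 with an adjusted p of 0.0812. The call on the brightest probe set for E60 against E50 was lost without any single E60 array (highest adjusted p 0.0792), with arrays weighted by quality (0.0527) and after median centring, where the change was -0.71 (0.186), and the call for E70 against E50 was lost without E70 replicate 3 (0.0515), with those stages alone (0.0611), after median centring (-1.01, 0.0759) and with the mean of both probe sets (-0.70, 0.128).

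Summed marker signals of some other cell types were also lower at the later stages. The summed signal of the 5 of 8 macrophage markers measured was 1177 to 1376 at E60 and 576 to 768 at E70, against 3223 to 4895 at E50. Of these, C1QA was below background on every E50 array and CD14 on every E60 and E70 array, while CD14, AIF1 and C1QC fell and C1QA rose at E60 against E50. The summed signal of the 5 of 8 skeletal muscle markers measured was 991 to 1215 at E60 and 306 to 352 at E70, against 3990 to 5136 at E50. MYLPF made up most of it at E50 (2839 to 3415). MYLPF, TNNC2 and DES were called lower at E60 against E50, while TNNT3 (limma adjusted p = 0.141) and CKM (log2 change 0.094) were not called. Both sums were lower again at E70 than at E60, where the TGFB1 probe sets changed by -0.24 and 0.51. The part of macrophages and muscle cells in the lower TGFB1 signal was not tested.

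TGFB2 encodes TGF-β2, an isoform strongly expressed in embryonic epithelia and mesenchyme, and had 4 probe sets. The brightest gave 632, 566 and 396 at E50, 1756, 1541 and 1680 at E60 and 2429, 1262 and 2090 at E70. All E60 and E70 arrays exceeded all E50 arrays, and the E70 arrays spread on both sides of those of E60. E60 was higher than E50 by a log2 change of 1.67 ± 0.32 (SE, 95% interval 0.92 to 2.41, limma adjusted p = 0.0135), a 3.18-fold higher signal, and E70 was higher than E50 by 1.83 ± 0.32 (adjusted p = 0.00893), a call lost with those stages alone (0.0519), with arrays weighted by quality (0.0548) and with the mean of the 4 probe sets (change 0.38, 0.556). The change for E70 against E60 was 0.17 (-0.58 to 0.91, adjusted p = 1.0). The call for E60 against E50 was lost without E60 replicate 1 (adjusted p = 0.0571) and with arrays weighted by quality (0.0731). Of 5 blood markers, 2 were measured, with a summed signal of 2274 to 2864 at E60 and 2457 to 4024 at E70, against 1165 to 1569 at E50. They went opposite ways, HBB being called higher at both later stages and ALAS2 lower at E70, with a mean of 77.9, against 623 at E50 (adjusted p = 0.0121), and their part in the TGFB2 signal was not tested.

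The other TGFB2 probe sets differed from the brightest and from each other. The second gave 816, 889 and 357 at E50, with the last of these under background, 1082, 1223 and 933 at E60 and 882, 1191 and 998 at E70. All E60 arrays were above all E50 arrays, with a log2 change of 0.75 that did not pass the test (-0.13 to 1.64, limma adjusted p = 0.206). The third gave 421, 330 and 584 at E50, 373, 423 and 346 at E60 and 324, 302 and 301 at E70, so that every E70 array was below every array of the earlier stages, with log2 changes of -0.30 for E70 against E60 (adjusted p = 0.991) and -0.49 for E70 against E50 (adjusted p = 0.235). The fourth and dimmest gave 331, 464 and 13.6 at E50, with the last of these under background, 253, 174 and 165 at E60 and 116, 73.5 and 89.6 at E70. Its E50 arrays spanned 34.1-fold, and its E70 arrays were all below those of E60 (log2 change -1.08, -3.92 to 1.76, adjusted p = 1.0). The mean over the 4 probe sets changed by 0.71 for E60 against E50, with an adjusted p of 0.278.

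Of the type I receptors, both genes were above background on every array. ACVR1 (also called ALK2) binds activin and signals mainly for BMPs. Its brighter probe set gave 1795, 1879 and 1178 at E50, 2242, 2351 and 2388 at E60 and 2286, 2285 and 2621 at E70. All E60 and E70 arrays were above all E50 arrays, by log2 changes of 0.55 ± 0.25 for E60 against E50 (SE, 95% interval -0.02 to 1.13, limma adjusted p = 0.161) and 0.60 ± 0.25 for E70 against E50 (0.016 to 1.17, adjusted p = 0.137), which did not pass the adjustment. The other probe set gave 251, 557 and 1172 at E50, 870, 900 and 905 at E60 and 828, 1104 and 906 at E70. Its E50 arrays spanned 4.66-fold and overlapped both later stages, with a log2 change of 0.70 for E60 against E50 (-0.49 to 1.90, adjusted p = 0.368). Between E70 and E60 the ACVR1 probe sets differed by 0.04 (-0.54 to 0.62) and 0.08 (-1.12 to 1.27).

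ACVR1B (also called ALK4) is the type I receptor through which activin A mainly signals. Its probe set gave 711, 823 and 1219 at E50, 841, 836 and 728 at E60 and 2756, 1208 and 1609 at E70. All 3 E70 arrays were above all 3 E60 arrays, and the lowest E70 array lay just under the highest E50 array. E70 was above E60 by a log2 change of 1.13 ± 0.36 (SE, 95% interval 0.29 to 1.97), a 2.19-fold higher signal with an unadjusted p of 0.0154 and a limma adjusted p of 0.418. ACVR1B was the single member probe set with an unadjusted p under 0.05 for E70 against E60. Fitted on the E60 and E70 arrays alone, the change had an adjusted p of 0.169. The change for E60 against E50 was -0.16 (-1.003 to 0.68, adjusted p = 0.787) and turned to 0.62 when arrays were centred on their medians. The summed signal of the 5 of 11 epithelial markers measured (CDH1, EPCAM, AMBN, AMELX and ENAM) was 5072 to 5807 at E70, against 2136 to 2418 at E60. Limma called 0 of the 5 in this step, the mean of ENAM was the lower at E70 (34.0, against 44.3 at E60), and the part of these cells in the ACVR1B signal was not tested.

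The type II receptors ACVR2A and ACVR2B, which bind activins and several BMPs, were close to background. The brighter ACVR2A probe set gave 33.1, 78.3 and 34.3 at E50, 94.1, 30.6 and 43.9 at E60 and 67.7, 79.3 and 57.3 at E70. It was above background on 1 of 3 arrays at E50, 1 of 3 at E60 and 3 of 3 at E70. The other gave 237, 7.77 and 11.2 at E50, 114, 32.5 and 15.3 at E60 and 58.5, 4.19 and 88.6 at E70, and was above background on none of the E50 arrays, 1 of the E60 arrays and 2 of the E70 arrays. ACVR2B gave 18.7, 20.3 and 10.7 at E50, 12.4, 48.3 and 81.2 at E60 and 58.5, 35.6 and 8.46 at E70, above background on none, 1 and 1 of 3 arrays in that order of stages. The ranges of the 3 stages overlapped for each of these probe sets, and no fold change is given for either gene because the signals did not stand clear of background.

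For E60 against E50, 1 member probe set rose (TGFB2) and 1 fell (TGFB1), which is 15.4% of the 13, against 18.5% of all 23999 probe sets called in that comparison at a limma adjusted p under 0.05 (7.85% higher and 10.6% lower). For E70 against E50 the same probe sets were called, 1 higher and 1 lower, against 18.8% of all (8.16% higher and 10.6% lower). For E70 against E60 limma called 0 of 13, against 0.421% of all (0.0833% higher and 0.338% lower), and 1 of 13 had an unadjusted p under 0.05, against 7.73% of all. Over the 3 stages together (limma F), the same TGFB1 and TGFB2 probe sets were called, against 17.7% of all. Signals of the 2 stages did not overlap for 4 of 13 probe sets at E60 against E50, against 39.2% of all, for 5 of 13 at E70 against E60, against 28.2%, and for 4 of 13 at E70 against E50, against 37.4%. The median log2 change of the 13 was 0.49 for E60 against E50 and 0.04 for E70 against E60, where the medians of all probe sets were -0.18 and 0.055. With the arrays of the 2 compared stages fitted alone, limma called 1 of 13 (TGFB2) for E60 against E50, 0 of 13 for E70 against E60 and 0 of 13 for E70 against E50, against 8.7%, 1.75% and 7.82% of all. The shares called were near or below those of all probe sets, and the share without overlap was above theirs for E70 against E60 and below it in the other comparisons. The 3 comparisons share arrays, so their calls are not separate evidence.

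**Figure D2:**
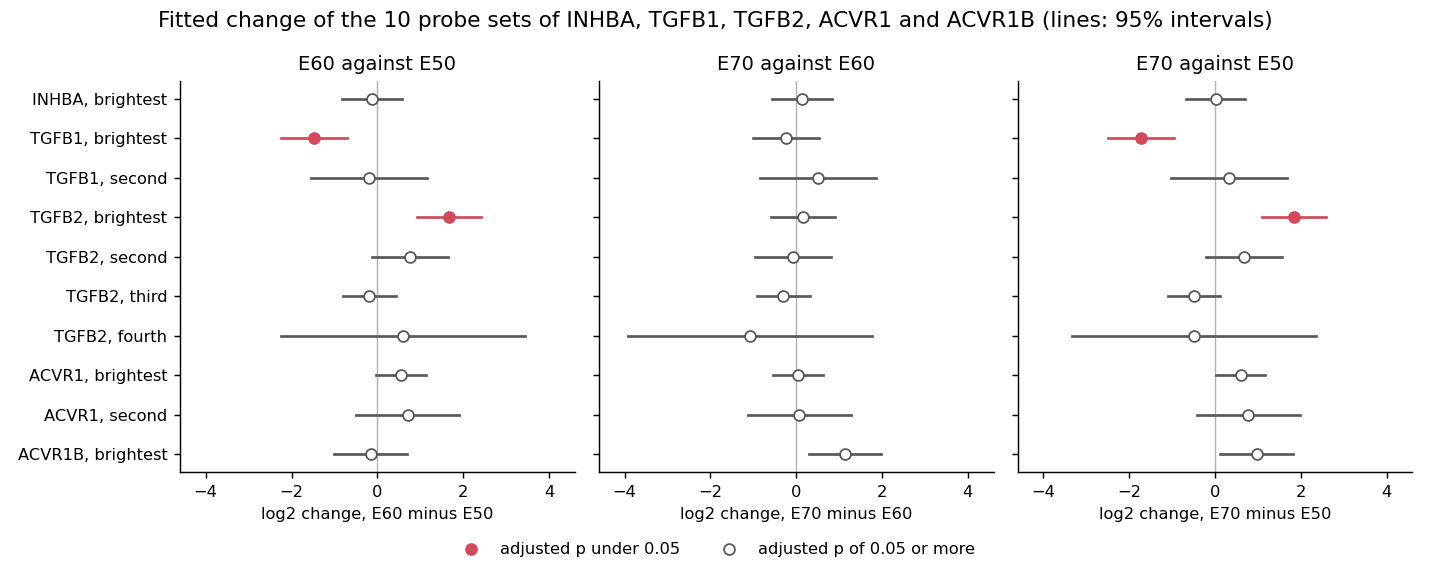
Fitted log2 change of 10 member probe sets in each comparison of stages, with 95% intervals from limma. Filled red points had an adjusted p under 0.05, and the probe sets of ACVR2A and ACVR2B are left out because they were near background. The brightest TGFB1 probe set (-1.48) and the brightest TGFB2 probe set (1.67) are called at E60 against E50, and none is called at E70 against E60.

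Whether a member turned at E60 was asked by testing the difference between the later and the earlier step. No member passed, and 1.99% of all probe sets did. The difference was -1.50 for the brightest TGFB2 probe set (limma adjusted p = 0.192), 1.24 for the brightest TGFB1 probe set (adjusted p = 0.281) and 1.29 for ACVR1B (adjusted p = 0.310). TGFB2 had its higher signal by E60 and ACVR1B at E70, but this ordering was not resolved by the test.

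Members were also set against each other within an array, where the scaling of the array cancels. The unlike 3′ to 5′ ratios and background of the E50 arrays need not act equally on both probe sets of a pair. Stage and array quality therefore cannot be told apart in these differences either. A difference between probe sets has no meaning as a ratio of transcripts, and only its change between stages was read. The log2 difference of TGFB2 minus TGFB1 (brightest probe sets) was -0.33, 0.70 and -0.42 on the E50 arrays, 3.29, 3.10 and 3.01 on the E60 arrays and 3.85, 2.82 and 3.94 on the E70 arrays. The E60 and E70 arrays lay wholly above those of E50, with a mean 3.15 higher at E60 than at E50, an 8.87-fold shift in the ratio. An exact permutation test of the stage labels over the 3 stages together gave p = 0.0143, and 0.0286 adjusted over the 4 pairs examined. The smallest p that 9 arrays allow is 0.00357. The test does not address the E60 against E50 shift by itself, for which 3 arrays against 3 allow no p under 0.1. The pairs were chosen with earlier results of these data known. This pair sets a probe set called higher against one called lower on the same arrays, so its p is not separate evidence. The adjusted p became 0.0571 without E70 replicate 1 or without E70 replicate 3. With the mean of all probe sets of each gene the difference averaged 0.41 ± 0.43 over the E50 arrays, 1.95 ± 0.21 over those of E60 and 1.49 ± 0.20 over those of E70 (SD, n = 3 each, exact adjusted p = 0.0143). Over all 8 pairings of a TGFB2 with a TGFB1 probe set, which were examined after the data had been seen, the mean difference was higher at E60 than at E50 in 8, by 0.002 to 3.15, and the arrays of both stages did not overlap in 4. The mean difference was higher at E70 than at E50 in 6 of the 8 pairings and lower in 2, the change running from -0.80 to 3.55.

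The difference of INHBA minus TGFB1 averaged -0.49 ± 0.34 over the E50 arrays, 0.87 ± 0.39 over those of E60 and 1.24 ± 0.045 over those of E70 (SD, n = 3 each, exact permutation p = 0.0107, adjusted 0.0286), and all E60 and E70 arrays were above all E50 arrays. This shift rested on the brightest TGFB1 probe set. With the mean of both TGFB1 probe sets it was 0.72 for E60 against E50, and the exact test over the 3 stages gave an adjusted p of 0.248. The difference of ACVR1 minus ACVR1B averaged 0.83 ± 0.76 over the E50 arrays, 1.54 ± 0.16 over those of E60 and 0.45 ± 0.63 over those of E70 (SD, exact p = 0.125, adjusted 0.167), with the 3 E70 arrays below the 3 E60 arrays. The fourth pair, ACVR2B minus ACVR2A, lay near background and its values are not read.

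**Figure D3:**
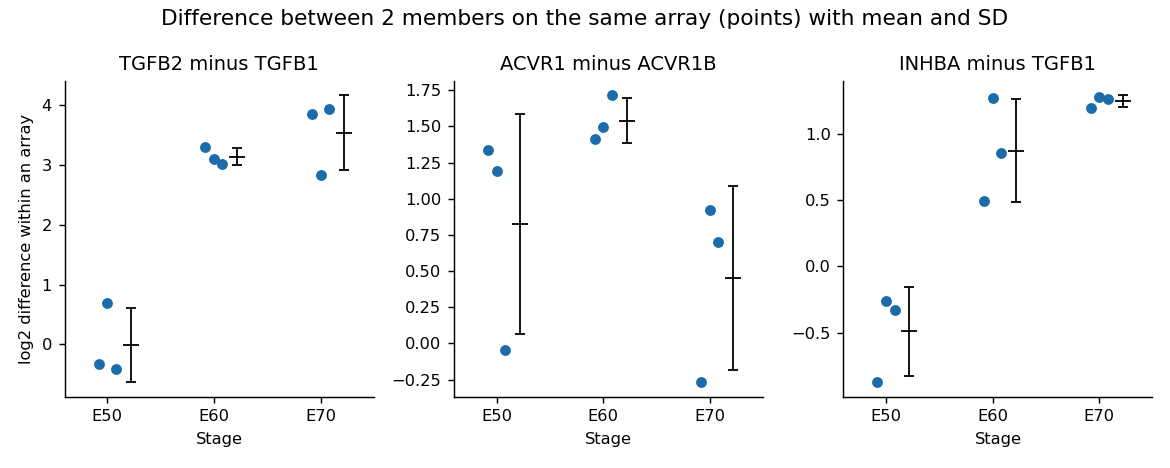
Log2 difference between the brightest probe sets of a pair of members on the same array, by stage, for 3 of the 4 pairs examined, without the dim ACVR2B and ACVR2A. Points are arrays (3 per stage), and bars give the mean and SD. TGFB2 minus TGFB1 averages -0.016 over the E50 arrays, 3.13 over those of E60 and 3.54 over those of E70, and INHBA minus TGFB1 also lies higher on every E60 and E70 array than on any E50 array.

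Other genes of the pathway were read from lists, with the brightest probe set standing for each gene. Their counts stand beside 18.5% of all probe sets called for E60 against E50, 0.421% for E70 against E60 and 18.8% for E70 against E50. These shares cover every probe set, dim ones included, and not only the brightest of each gene. Of 12 further ligands, 6 were measured (TGFB3, INHA, INHBB, MSTN, GDF11 and GDF9), and limma called 0 of 6 in either step. INHA, the inhibin α subunit, was called for E70 against E50 (log2 change -3.74, adjusted p = 0.0336) and is named after its values were seen. It was above background on 1 of 3 arrays at E70, so that the size of its change is not resolved, and the call was kept without E50 replicate 1, E70 replicate 1 or E70 replicate 2 and lost without each of the other 6 arrays, with those stages alone (0.104) and with array weights (0.214). Of 9 further receptors and co-receptors 4 were measured, with 1 higher, 1 lower and 2 not called for E60 against E50. TGFBR1, the type I receptor of TGF-β, had signals with geometric means of 3739 at E60 and 1052 at E50 (log2 change 1.83 ± 0.38, SE, adjusted p = 0.0178). Its other probe sets changed by -4.73 (adjusted p = 0.0170) and 0.54, so probe sets of this gene were called in opposite directions, and the call on the brightest was lost without any single E60 array (highest adjusted p 0.0665). ENG (endoglin), a co-receptor of endothelial cells that is also on the endothelial marker list, was lower at E60 by -3.20 ± 0.46 (geometric mean 58.5, against 538 at E50, adjusted p = 0.00576). Its E60 signals of 48.4, 59.8 and 69.4 lay just above the backgrounds of those arrays, 37.9, 52.7 and 54.4. At E70 it was above background on 2 of 3 arrays, so that the size of its change is not resolved. The summed signal of the 7 endothelial markers was 3236 to 3608 at E60, against 3590 to 4293 at E50. This sum includes ENG itself, at 48.4 to 69.4 at E60 and 349 to 857 at E50. The other 6 markers were not called for E60 against E50, with changes from -1.485 (KDR) to 2.435 (VWF). The part of endothelial cells in the ENG signal was not tested. TGFBR2, the type II receptor of TGF-β, was not analysed here.

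Of 22 extracellular binding proteins and activators 9 were measured, with 1 higher and 2 lower for E60 against E50 and 0 called for E70 against E60. ITGAV, the αv integrin subunit that releases latent TGF-β, rose by 2.14 ± 0.39 (SE, adjusted p = 0.0113), and BGN (biglycan), a matrix proteoglycan that binds TGF-β, fell by 1.40 (adjusted p = 0.00626). FBN1 (fibrillin-1), to which latent complexes attach, fell by 1.08 (adjusted p = 0.0449), a call kept without E50 replicate 3 or E70 replicate 3 and lost without each of the other 7 arrays (highest adjusted p 0.134). The other FBN1 probe set changed by 0.028 (0.942). Among the genes not called on their brightest probe set, dimmer THBS1 probe sets were called in opposite directions (-4.625, adjusted p = 0.0019, and 4.185, 0.0372). A dimmer FSTL3 probe set was called lower (-2.12, 0.0483). FST (follistatin), the secreted antagonist that binds activin, had a geometric mean signal of 1068 over the E50 arrays, 1263 over the E60 arrays and 1289 over the E70 arrays, with changes of 0.24 for E60 against E50 (adjusted p = 0.431) and 0.03 for E70 against E60 (adjusted p = 1.0). Of 22 SMADs and nuclear partners 7 were measured, and for E60 against E50 ZFYVE16 (endofin), a SMAD anchor, rose by 1.64 (adjusted p = 0.0135; its other probe set changed by -0.43) while FKBP1A, which holds type I receptors inactive, fell by 1.34 (adjusted p = 0.0127). The ZFYVE16 call was lost without E60 replicate 1 or 2 and the FKBP1A call without E60 replicate 2.

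Transcripts known to respond to TGF-β formed the largest list, with 17 of 26 measured. For E60 against E50, 2 rose, 4 fell and 11 were not called, and the median log2 change was -0.33, beside -0.18 for all genes. Among the genes not called on their brightest probe set, a dimmer probe set was called higher for TPM1 (2.43, adjusted p = 0.00126) and FN1 (2.24, 0.0324). POSTN (periostin), a matrix protein of the periodontium and of bone surfaces, rose by 2.05 (geometric means 17898 at E60 and 4333 at E50, limma adjusted p = 0.00236), while BGN fell and ACTA2 (smooth muscle α-actin) fell by 1.47 (adjusted p = 0.00667). For E70 against E60, 0 rose and 3 fell. They were POSTN, which fell by 2.11 (adjusted p = 0.0127), ACTA2, which fell by 1.62 (adjusted p = 0.0383) and LOX, a lysyl oxidase that cross-links collagen, which fell by 1.65 (adjusted p = 0.0265). LOX had risen by 0.92 at E60 against E50 (adjusted p = 0.0236), where its other probe set changed by -1.45 (0.221), and POSTN and LOX were the list members for which the difference between the steps was itself called. The E70 against E60 calls of ACTA2 and LOX were lost without any single array of those stages (highest adjusted p 0.196 and 0.163), and that of POSTN without any of them but E70 replicate 2 (0.101). The rise of LOX for E60 against E50 was lost without any single E60 array (0.0903), and 1 of the 4 falls, that of SPARC, turned to 0.485 after quantile normalisation. The summed signal of the 5 osteoblast markers was 10269 to 11109 at E70, against 58022 to 62147 at E60. The sum was carried by SPP1 and IBSP, the 2 of 5 that fell, while ALPL was not called and had a mean of 1497 at E70, against 702 at E60, and SP7 was below background on every E70 array. The part of bone cells in these values was not tested.

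**Figure D4:**
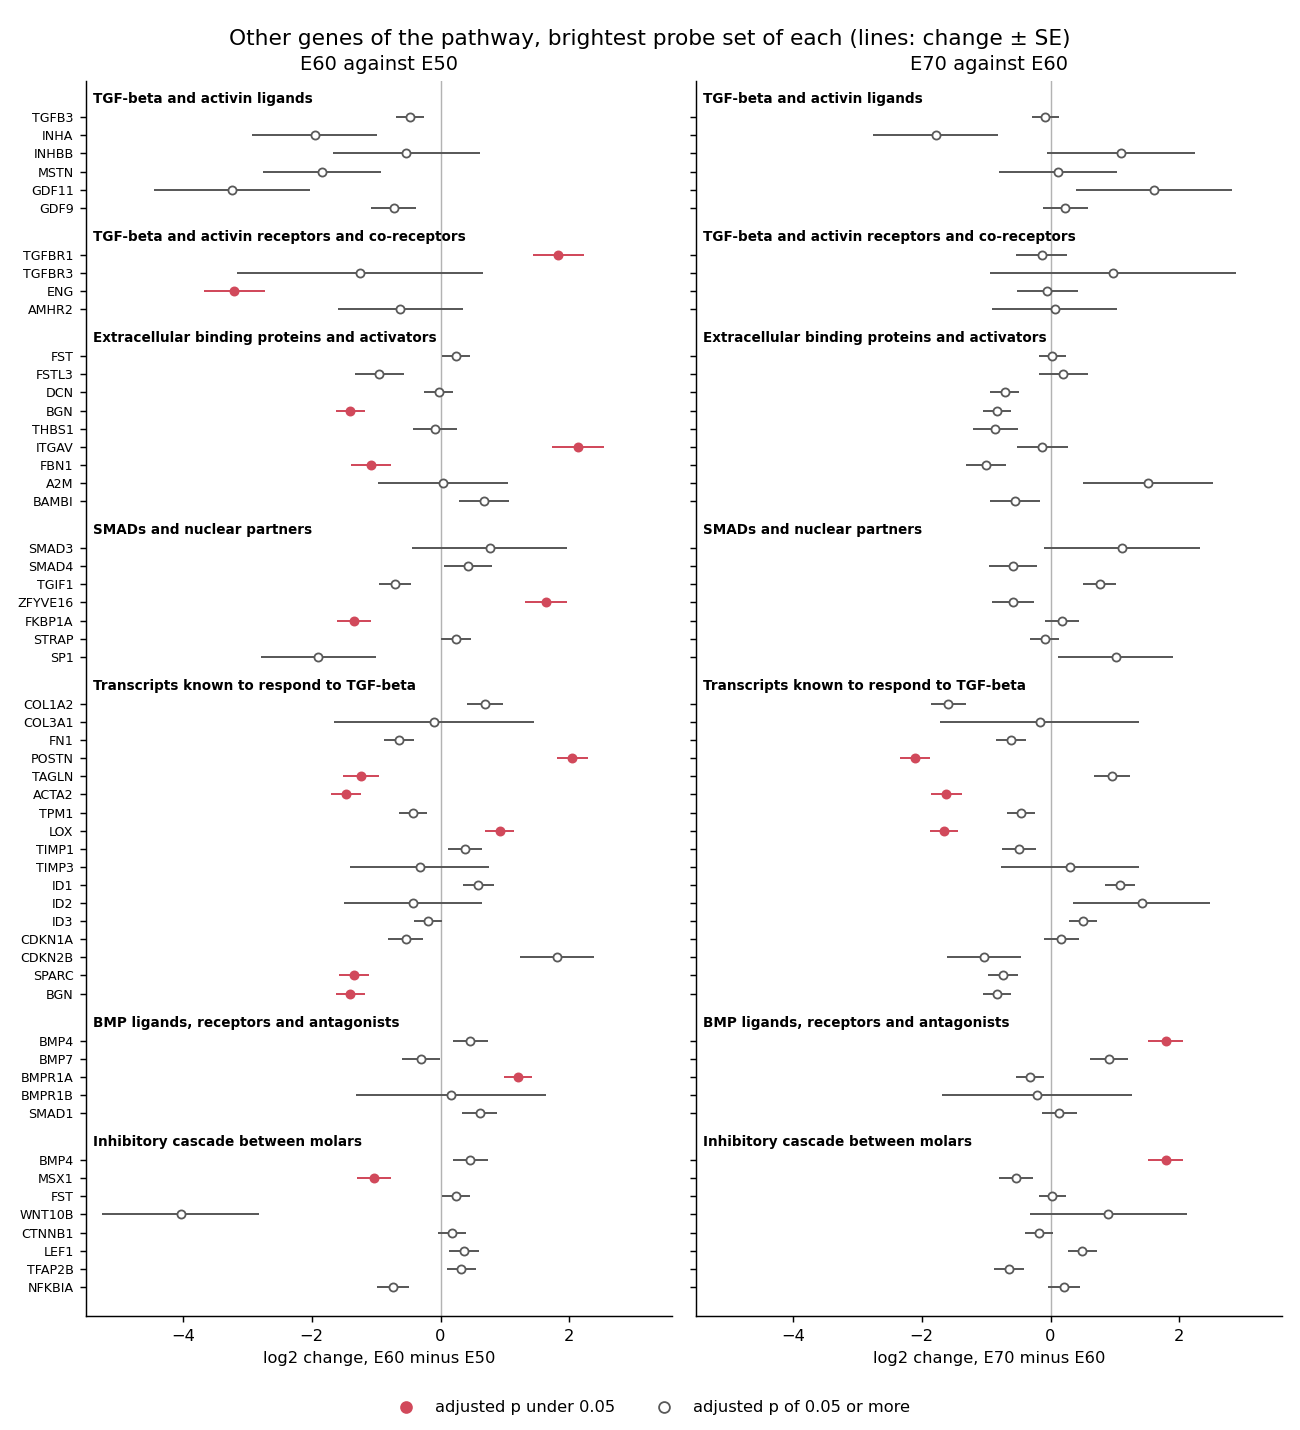
Log2 change (point) and its SE (line) of the brightest probe set of each measured gene on the pathway lists, for E60 against E50 on the left and E70 against E60 on the right. Filled red points had a limma adjusted p under 0.05. ENG (-3.20) and ITGAV (2.14) have the largest called changes at E60 against E50, and POSTN, LOX, ACTA2 and BMP4 are the 4 genes called at E70 against E60. ENG lay near background at E60, so the size of its change is not resolved.

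Of 18 BMP ligands, receptors and antagonists 5 were measured. BMPR1A, a BMP type I receptor, rose at E60 by 1.21 against E50 (limma adjusted p = 0.00916). BMP4 gave 749, 820 and 770 at E50, 882, 1292 and 1083 at E60 and 4749, 3417 and 3120 at E70, with every E70 array above every earlier one. BMP4 rose by 1.79 ± 0.26 for E70 against E60 (SE, adjusted p = 0.0447), and this call was kept without E50 replicate 3 and lost without each of the other 8 arrays (highest adjusted p 0.208). The call was also lost after quantile normalisation (change 1.81, limma adjusted p = 0.0572) and median centring (1.72, 0.0917). It was kept with array weights (0.00699) and with those stages alone (0.0419). BMP4 is made by dental epithelium as well as mesenchyme, and the epithelial markers CDH1 and EPCAM had means of 2401 and 2376 at E70, against 1109 and 1053 at E60 (adjusted p = 0.216 and 0.224), whose part in the BMP4 signal was not tested.

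Of 21 genes listed for the inhibitory cascade between molars, 8 were measured. For E60 against E50 0 rose and 1 fell, and for E70 against E60 1 rose (BMP4) and 0 fell. MSX1, a homeobox factor of dental mesenchyme that lies downstream of BMP4, fell at E60 by 1.03 (geometric means 1423 at E60 and 2908 at E50, limma adjusted p = 0.0295), although its other probe set changed by 1.42. That call was lost without any single E60 array or without E70 replicate 3. LEF1 and CTNNB1, of the WNT pathway, changed by 0.37 and 0.18 for E60 against E50 (adjusted p = 0.267 and 0.577) and by 0.49 and -0.18 for E70 against E60. LEF1 was called for E70 against E50 (0.86, adjusted p = 0.0305), a call lost without any single E60 or E70 array (highest 0.0968). TFAP2B changed by 0.32 and then by -0.64, NFKBIA by -0.74 and then by 0.21, and WNT10B, below background on every E60 and E70 array, had an adjusted p of 0.0548 for E60 against E50. After median centring the falls of BGN, FBN1, FKBP1A, ACTA2, TAGLN, SPARC and MSX1 for E60 against E50 were no longer called (limma adjusted p 0.0667 to 0.538), while that of ENG was (0.00768). With activin subunit INHBA and its antagonist FST also not called in either step, the list held 1 called gene in the earlier step (MSX1) and 1 in the later (BMP4), and 3 for E70 against E50, of which BMP4 and LEF1 rose and MSX1 fell. For E70 against E50, 18.8% of all probe sets were called. SOSTDC1 and SHH were not analysed here.

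The tissue was checked against its markers. CDH1 and EPCAM for epithelium and MSX1, BMP4 and VIM from the mesenchyme list were above background on all 9 arrays. The enamel genes AMELX and AMBN were above background on every E70 array and on 1 of 3 E50 arrays each, and ENAM on 1 of 3 arrays at each stage. KRT14, PAX9 and RUNX2, among the other listed markers of dental epithelium and mesenchyme, were not analysed here.

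The genes whose course over the 9 arrays was most like that of a member were sought among 4662 genes above the median signal, as a description. TIMM10B (Pearson r = 0.993) and BOLA3 (0.977) ran most like TGFB1, and both had their highest mean at E50. HBB (0.985), a haemoglobin chain, and SRSF1 (0.979), a splicing factor, ran most like TGFB2, and HBB had a geometric mean signal of 768 over the E50 arrays, 2317 over the E60 arrays and 3221 over the E70 arrays. INPP5F (0.988) and CAPN7 (0.984) ran most like ACVR1, and SEC14L1 (0.955) and MTMR3 (0.943) most like ACVR1B. For INHBA the closest were BPHL (0.851) and VPS25 (0.816). For the dim ACVR2A and ACVR2B the closest were UBP1 (0.862) and NMT1 (0.823), and DYNLRB1 (0.913) and SARS (0.827). All these points share the 3 stages and the unlike quality of the E50 arrays.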

How the data were processed

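Additional molar germs of miniature pigs were profiled on 9 Affymetrix porcine arrays, 3 at each of E50, E60 and E70, and grouped by the stage in the sample titles. The deposited values are linear MAS 5.0 signal intensity per probe set, which the authors made with the MAS5 algorithm in GeneSpring and scaled per array. A genome build is not given in the sources used here, and no detection calls were used. Stages are those of the labels, and a table of the study heads the first stage with a later day. Of 24123 probe sets, 124 controls were left out. Of the remaining 23999, 10069 had 1 gene symbol in the platform annotation, 198 had several and 13732 had none. For 9961 of the 10069 the symbol used was that of the RefSeq gene table for the same Entrez gene number.

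Signals were floored at 1 and log2-transformed. The 3 stages were fitted together with limma 3.58.1 in R 4.3.3, without covariates, and p-values were adjusted by Benjamini-Hochberg over all 23999, a call being an adjusted p under 0.05. The study's methods name a random variance F-test, for which limma's moderated F was used. A gene was represented by its brightest probe set. Differences between members within an array were tested over the 3 stages together by exact permutation of the stage labels over 280 splits, one-sided by construction. Array number limits precision, with 6 residual degrees of freedom. The fitting script was tested on simulated data. Python 3.11.15 with SciPy 1.17.1 was used for the remaining steps.

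Named genes were all members, up to 3 called genes of each list per step with the lowest adjusted p, all measured genes of the inhibitory cascade list and the 2 genes most like each member. INHA and the genes counted in groups of 5 or fewer outside this rule were chosen after their values were seen. The members, pairs and lists were chosen with earlier results of these data known. Alternatives covered scaling, floor, offset, dim probe sets, variance trend, array weights, stages fitted alone, the replicate block, the mean of probe sets and each array left out.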

Additional observations from a re-analysis of the deposited data

How the results depend on the processing

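The 2 member genes called for E60 against E50 were 1 after quantile normalisation, 4 with signals floored at the background, 1 with arrays of those stages alone, 0 with array weights and 0 with the mean of a gene's probe sets, and 0 to 2 with 1 array left out. Member probe sets called (2) were 1, 6, 1 and 0 after quantile normalisation, with the floor, with those stages alone and with weights, and 0 to 3 with 1 array left out. Of all 23999 probe sets, 4436 were called in the main fit of E60 against E50. In the same order of settings these were 3573, 14700, 2087 and 1871, and 1758 to 5975 with 1 array left out. For E70 against E50 the 2 member genes were 5 with the floor at the background, 0 with arrays of those stages alone, 1 with array weights, 4 with a variance trend and 0 with the mean of probe sets, and 1 to 2 with 1 array left out; the 2 member probe sets were 4 after median centring, 8, 0, 1 and 4 under the floor, stages alone, weights and trend, and 1 to 4 with 1 array left out. Of all 23999 probe sets, 4510 were called for E70 against E50 in the main fit. After median centring and with the floor, stages alone, weights and trend these were 5860, 14573, 1877, 2015 and 5553. Over the 3 stages the 2 genes were 1 after quantile normalisation, 5 with the floor, 0 with weights and 0 with the mean of probe sets, and 1 to 2 with 1 array left out. The 4247 of all probe sets called over the 3 stages were 3506, 14876, 2510 and 4239 in the same order of settings. For E70 against E60 and for the difference between the steps, 0 members were called under every alternative run (0 to 0 with 1 array left out).

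The TGFB1 call for E60 against E50 was lost after quantile normalisation (adjusted p = 0.0775), after median centring (change -0.71, 0.186), with stages alone (0.0718), with array weights (0.0527), with the mean of probe sets and without any single E60 array (highest 0.0792). The TGFB2 call was lost with array weights (0.0731), with the mean of probe sets and without E60 replicate 1 (0.0571). For E70 against E50 TGFB1 was lost after median centring (-1.01, 0.0759), with stages alone (0.0611), with the mean of probe sets (-0.70, 0.128) and without E70 replicate 3 (0.0515), and TGFB2 with stages alone (0.0519), array weights (0.0548) and the mean of probe sets (0.38, 0.556). ACVR1 became called after median centring (1.33, limma adjusted p = 0.0264, for E60 against E50, and 1.30, 0.0277, for E70 against E50) and with a variance trend (0.0489 and 0.0369), and ACVR1B for E70 against E50 after median centring (1.68, 0.014), with the floor (0.0312) and with the trend (0.0397). With the floor the ACVR1B change was still 0.97 (SE 0.335, against 0.361 in the main fit), and 14573 of all probe sets were called. Over all probe sets the median change shifted by 0.775 under median centring and by 0.18 under quantile normalisation for E60 against E50, and by 0.71 and 0.15 for E70 against E50.

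Signs of member changes that turned were those of changes that did not pass the test. For E60 against E50, INHBA was 0.30 after quantile normalisation, 0.66 after median centring and -0.30 to 0.11 with 1 array left out (above 0 without E60 replicate 1), and ACVR1B was 0.62 after median centring and -0.32 to 0.065 with 1 array left out (above 0 without E50 replicate 3). For E70 against E60, TGFB1 was 0.14 and TGFB2 -0.32 with the mean of probe sets and ACVR1 -0.025 after median centring, and with 1 array left out INHBA was -0.093 to 0.30 (below 0 without E60 replicate 1), TGFB2 -0.029 to 0.44 (without E70 replicate 1) and ACVR1 -0.026 to 0.073 (without E70 replicate 3). For E70 against E50 INHBA was -0.17 to 0.12 with 1 array left out (below 0 without E50 replicate 2, and -0.083 without E70 replicate 2). Of the within-array shifts, INHBA minus TGFB1 fell short with the mean of probe sets (0.72 for E60 against E50, exact adjusted p over the 3 stages = 0.248). With 1 array left out the shifts for E60 against E50 were 2.95 to 3.51 for TGFB2 minus TGFB1, 1.16 to 1.55 for INHBA minus TGFB1 and 0.28 to 0.97 for ACVR1 minus ACVR1B. ACVR2B minus ACVR2A lay near background and is not read.

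Counts over all probe sets moved more. For E60 against E50 the 4436 calls (42.5% higher) were 14700 with the floor (15.1% higher), 2087 with stages alone and 1871 with array weights (60.1% higher), and 1758 to 5975 with 1 array left out; after median centring 83.7% of the calls were higher. For E70 against E60 the 101 calls (19.8% higher) were 67 after median centring, 198 with the floor, 172 without dim probe sets, 420 with stages alone (44.3% higher), 934 with weights (45.9% higher) and 366 with the trend (34.2% higher), and 30 to 149 with 1 array left out. For E70 against E50 the 4510 calls (43.4% higher) were 14573 with the floor (16.1% higher), 1877 with stages alone and 2015 with weights (56.9% higher), and 2252 to 6116 with 1 array left out; after median centring 80.6% were higher. Over the 3 stages the 4247 calls were 14876 with the floor and 2510 with weights, and 2307 to 5724 with 1 array left out. The cause of these shifts was not tested.

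Replicate numbers did not pair the arrays: deviations of arrays with the same number correlated at -0.021 to 0.026 over 9 pairs and those with other numbers at -0.036 to 0.031, so stages share only a number. With the replicate number as a block, the member genes called were 1 for E60 against E50 and 1 over the 3 stages. The member probe sets called were 1 for E60 against E50, which was TGFB2 (limma adjusted p = 0.0365), while the TGFB1 call was lost (0.0534). All probe sets called were 2811 for E60 against E50, 9 for E70 against E60 (0.0% higher), 2944 for E70 against E50 and 2158 over the 3 stages.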
